A study of Homo sapiens with 8 samples.

Results

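The sgRNAs described here target 18 genes whose products act on elongating RNA polymerase II. They are SUPT5H and SUPT4H1 (the DSIF complex), SUPT6H and IWS1, PAF1, CTR9, LEO1, RTF1 and CDC73 (the PAF1 complex), SUPT16H and SSRP1 (FACT), CDK9 and CCNT1 (P-TEFb), TCEB3, TCEB1 and TCEB2 (elongin A, C and B, now ELOA, ELOC and ELOB), TCEA1 (TFIIS) and ELL. An sgRNA was a member when its name carried one of these symbols, it belonged to the P1 or P1P2 promoter set, and it averaged at least 20 reads across the 8 libraries. This gave 90 sgRNAs, 5 for each of the 18 genes, out of 104881 kept sgRNAs. The names of these genes occur on 180 sgRNAs in all, and the other 90 had a count of 0 in every library. The member with the lowest mean count, an sgRNA of CTR9, had a mean of 41.1, carried mainly by 234 reads in 1 of the 8 libraries.

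The libraries came from a genome-wide CRISPRi growth screen in K562, a human leukemia cell line. In CRISPRi, a catalytically dead Cas9 fused to the KRAB repressor is led to a promoter by an sgRNA and lowers transcription there, and an sgRNA that slows growth becomes rarer in the genomic DNA of the culture. The 4 groups, with 2 libraries each, were mutant uL16 at day 9, mutant uL16 at day 0, wild-type uL16 at day 9 and wild-type uL16 at day 0. All cells carried dCas9-KRAB, stably expressed 1 form of uL16 (the large-subunit ribosomal protein encoded by RPL10), and had gone through 3 days of selection with 1 µg/ml puromycin. The labels do not say what the uL16 mutation is, whether a line is 1 clone, or whether replicates were separate transductions, so p-values measure the spread between these libraries only. The design text puts the end of growth at 10 doublings. Library totals lay between 39233340 and 143585751 reads, and the median count of a member sgRNA lay between 163.5 and 960 per library. No RNA was measured, so neither the strength of any knockdown nor the markers of the cell line can be read from these data.

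RNA polymerase II pauses soon after it starts a transcript. P-TEFb, the kinase CDK9 with cyclin T1, phosphorylates the polymerase and DSIF and so releases it. Beyond the pause DSIF, SPT6 (SUPT6H) and the PAF1 complex travel with the polymerase, FACT takes nucleosomes apart and rebuilds them around it, and TFIIS, elongin and ELL help it through stalls. Elongin B and C also serve as adaptors in cullin-RING ubiquitin ligases.

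The stretches just upstream of the transcript starts of 6 genes are shown for sequence context. PAF1, CTR9, LEO1 and RTF1 were chosen because most member genes of the PAF1 complex moved together, and the DSIF pair because its genes did not. CDC73, also of the PAF1 complex, had no match among the RefSeq promoters used and is not shown. The sgRNAs were not mapped onto these windows, so whether any lies within them is not known. They are RefSeq promoters on GRCh38.p14, the 150 bases before the start, 5′ to 3′ along the gene. Capitals mark the GC box GGGCGG or, on the other strand, CCGCCC, which do not overlap each other in these windows. Of 35116 RefSeq promoters, 36.8% hold a GC box in the same 150 bases. The sgRNA sequences themselves were not used here.
PAF1, chr19:39391107-39391256, minus strand: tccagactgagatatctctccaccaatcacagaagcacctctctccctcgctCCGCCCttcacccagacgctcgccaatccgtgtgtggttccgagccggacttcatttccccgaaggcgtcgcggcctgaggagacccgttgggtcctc
CTR9, chr11:10751096-10751245, plus strand: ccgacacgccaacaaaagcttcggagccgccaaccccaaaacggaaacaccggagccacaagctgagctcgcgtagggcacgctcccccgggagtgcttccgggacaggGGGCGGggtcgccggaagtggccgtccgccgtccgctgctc
LEO1, chr15:51971779-51971928, minus strand: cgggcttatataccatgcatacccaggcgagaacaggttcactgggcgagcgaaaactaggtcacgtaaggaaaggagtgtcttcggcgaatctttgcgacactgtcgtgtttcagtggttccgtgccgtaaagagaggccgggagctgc
RTF1, chr15:41416945-41417094, plus strand: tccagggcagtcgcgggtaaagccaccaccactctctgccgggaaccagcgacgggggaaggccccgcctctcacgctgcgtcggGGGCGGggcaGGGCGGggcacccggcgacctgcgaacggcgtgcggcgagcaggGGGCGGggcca
SUPT5H, chr19:39445432-39445581, plus strand: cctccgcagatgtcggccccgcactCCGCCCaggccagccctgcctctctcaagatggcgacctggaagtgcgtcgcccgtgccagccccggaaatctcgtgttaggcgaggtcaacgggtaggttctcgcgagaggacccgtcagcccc
SUPT4H1, chr17:58352202-58352351, minus strand: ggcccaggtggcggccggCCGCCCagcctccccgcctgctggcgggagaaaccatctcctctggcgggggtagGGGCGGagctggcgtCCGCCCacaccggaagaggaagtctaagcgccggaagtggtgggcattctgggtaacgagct
RTF1 and SUPT4H1 have 3 GC boxes each, PAF1, CTR9 and SUPT5H 1 each, and LEO1 has 0. The window of PAF1 lies within the 271 bases that separate its start from that of MED29, a Mediator subunit gene transcribed the other way. RefSeq lists 2 promoters for SUPT5H, of which 1 is shown. A match of these letters is a description and no evidence of a bound factor.

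sgRNAs of 11 of these 18 genes became rarer during growth in both lines. With the 5 sgRNAs of a gene summed, edgeR's quasi-likelihood test called 11 of 18 genes lower at day 9 than at day 0 in mutant cells (61.1%), against 9.07% of all 17547 genes. In wild-type cells it called 12 of 18 lower (66.7%), against 9.28% of all genes. The same 11 genes fell in both lines, and CDC73 made the twelfth in wild-type cells. How many of all 17547 genes fell in both lines was not counted. TCEB3 was the 1 gene that rose, in mutant cells only by that threshold, where 0.798% of all genes rose. In wild-type cells 0 of 18 were called higher by edgeR (0 at an unadjusted p under 0.05 too), against 0.986% of all genes. The median log2 change over the 18 genes was -0.61 in mutant and -0.72 in wild-type cells, while that over all genes was 0.01 in each. SUPT4H1, CDK9, TCEB1, TCEA1 and ELL passed in neither line. Fitted log2 changes are given below with their standard error (SE), from 2 libraries per group, and levels are CPM, read counts scaled to one common effective library size. Statements on whether groups of libraries overlap describe 2 libraries per group only. The share of all genes whose groups do not overlap was not counted.

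Of the DSIF pair, SUPT5H had the largest fall of the 18 summed counts in both lines, and SUPT4H1 did not pass the test. SUPT5H encodes the large subunit, which holds the clamp of the polymerase closed around DNA and RNA. Its sgRNAs summed to 3.91 and 3.20 CPM at day 9 and to 29.3 and 31.4 CPM at day 0 in mutant cells. In wild-type cells they summed to 3.03 and 3.92 CPM at day 9 and to 33.3 and 26.6 CPM at day 0. Day 9 and day 0 did not overlap in either line. The log2 change was -3.11 (SE 0.23, adjusted p = 9.62e-13) in mutant and -3.11 (SE 0.23, adjusted p = 1.61e-12) in wild-type cells, an 8.66-fold and an 8.60-fold fall. All 5 sgRNAs passed the test singly in both lines, with changes from -3.99 to -2.74 in mutant and from -4.32 to -2.41 in wild-type cells. SUPT5H was the only one of the 18 genes for which all 5 did. The share of all genes with every sgRNA called was not counted.

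SUPT4H1 encodes the small zinc-binding partner of SUPT5H. Its sgRNAs summed to 63.2 and 62.9 CPM at day 9 and to 65.2 and 61.1 CPM at day 0 in mutant cells, and to 63.0 and 58.6 CPM at day 9 and 70.0 and 63.0 CPM at day 0 in wild-type cells. The mutant libraries of the 2 days overlapped. The log2 change was -0.00 in mutant cells (95% interval -0.20 to 0.19) and -0.13 in wild-type cells (interval -0.33 to 0.07). Tested singly with edgeR, 0 of its 5 sgRNAs were called in either line, and 0 had an unadjusted p under 0.05.

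SUPT6H and IWS1 both fell. SUPT6H encodes SPT6, a histone chaperone that binds the polymerase tail linker. It summed to 19.5 and 17.5 CPM at day 9 and to 49.6 and 50.6 CPM at day 0 in mutant cells, a log2 change of -1.44 (SE 0.14). In wild-type cells it summed to 14.8 and 11.0 CPM at day 9 and to 50.3 and 47.5 CPM at day 0, a log2 change of -1.92 (SE 0.15). In each line 4 of its 5 sgRNAs fell, by 1.76 to 3.71 in mutant and by 2.32 to 3.03 in wild-type cells. The fifth, 301 bases from its nearest neighbour among them, had 0.38 in mutant and -0.05 in wild-type cells. The sgRNAs of SDF2, a gene next to SUPT6H, come within 157 bases of those of SUPT6H. SDF2 itself had a log2 change of 0.09 (95% interval -0.09 to 0.26) in mutant and 0.03 (interval -0.14 to 0.21) in wild-type cells.

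IWS1, which binds SPT6 and carries mRNA-processing and chromatin factors to it, was the 1 gene of the 18 with a larger fall in mutant cells at an unadjusted p under 0.05. Its sgRNAs summed to 16.9 and 18 CPM at day 9 and to 38.0 and 35.3 CPM at day 0 in mutant cells, and to 28.1 and 32.4 CPM at day 9 and 40.8 and 46.9 CPM at day 0 in wild-type cells. All mutant values at day 9 lay below all wild-type values at day 9, and the mutant values at day 0 also lay below the wild-type ones. The log2 change was -1.07 (SE 0.14) in mutant and -0.53 (SE 0.14) in wild-type cells. The wild-type call was lost without wild-type day 9 replicate 1 (-0.43, adjusted p = 0.0672) and without wild-type day 0 replicate 2 (-0.43, adjusted p = 0.204), where the value stayed within 1 SE and 1 arm had a single library. The sgRNA at 128283989 in the file's naming fell by 2.04 in mutant cells (adjusted p = 3.1e-04) and had -0.70 in wild-type cells (adjusted p = 0.395).

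In the PAF1 complex, which opens chromatin to the histone marks of transcribed genes, 4 of 5 genes fell in mutant and 5 of 5 in wild-type cells. Of its 25 sgRNAs, 13 passed as lower in mutant and 13 in wild-type cells, against 5% and 5.12% of all sgRNAs. PAF1 itself summed to 8.12 and 12.4 CPM at day 9 and to 37.1 and 44.3 CPM at day 0 in mutant cells. In wild-type cells it summed to 9.12 and 8.60 CPM at day 9 and to 40.1 and 38.3 CPM at day 0. The log2 changes were -1.97 (SE 0.18) in mutant and -2.15 (SE 0.18) in wild-type cells. These sums hide a split: 4 sgRNAs of PAF1 fell by 3.46 to 5.15 in mutant and by 3.14 to 4.56 in wild-type cells, and 1 did not pass. That sgRNA, at 39881372, had 5.74 and 8.14 CPM at day 9 and 6.54 and 6.15 CPM at day 0 in mutant cells, and 6.02 and 5.06 CPM at day 9 and 6.19 and 6.40 CPM at day 0 in wild-type cells. Without it, the PAF1 sum had a log2 change of -4.09 in mutant and -3.90 in wild-type cells. The SUPT5H sum without its own farthest sgRNA had -3.27 and -3.53, so the order of these genes depends on which sgRNAs are summed.

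MED29, which shares the intergenic stretch shown above with PAF1, has sgRNAs that come within 266 bases of those of PAF1. Its own sum fell by 0.38 (SE 0.11) in mutant and by 0.48 (SE 0.11) in wild-type cells. Whether sgRNAs of either gene also lower the other was not tested.

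CTR9, the scaffold of the complex, had a log2 change of -1.30 (SE 0.21) in mutant and -0.89 (SE 0.22) in wild-type cells. Its sgRNAs summed to 8.59 and 14.5 CPM at day 9 and to 27.1 and 30.8 CPM at day 0 in mutant cells, and to 10.5 and 13.8 CPM at day 9 and 23.6 and 21.5 CPM at day 0 in wild-type cells. Day 9 lay below day 0 in both lines. Without wild-type day 0 replicate 1 the wild-type call was lost (-0.82, adjusted p = 0.0794). Its 5 sgRNAs ran from -4.79 to 0.17 in mutant and from -3.99 to 0.16 in wild-type cells. The one at 10772822 was the rarest member, with 35 and 234 reads at day 0 in the mutant libraries and 23 and 3 in the wild-type ones. Its change of -2.56 in mutant and -2.49 in wild-type cells did not pass (adjusted p = 0.387 and 0.569).

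LEO1, a subunit that holds PAF1, had 4 sgRNAs within 40 bases of each other and 1 at 400 bases from them. The 4 had changes from -3.55 to -1.43 in mutant and from -3.98 to -1.64 in wild-type cells, of which 3 passed in each line. The sgRNA at 52263963 had 1.04 and 0.554 CPM at day 9 and 6.97 and 9.46 CPM at day 0 in mutant cells, and 0.505 and 0.562 CPM at day 9 and 9.09 and 7.79 CPM at day 0 in wild-type cells. The distant one, at 52263535, had 16.4 and 13.2 CPM at day 9 and 9.96 and 11.7 CPM at day 0 in mutant cells, and 15.5 and 11.1 CPM at day 9 and 9.31 and 10.7 CPM at day 0 in wild-type cells. It was thus no rarer at day 9 in any library, with changes of 0.45 and 0.41 that did not pass. The sum of the 5 was 23.6 and 21.8 CPM at day 9 and 41.0 and 46.4 CPM at day 0 in mutant cells, and 23.2 and 16.2 CPM at day 9 and 42.8 and 42.4 CPM at day 0 in wild-type cells. Day 9 lay below day 0 in both lines, with a log2 change of -0.95 (SE 0.15) in mutant and -1.11 (SE 0.15) in wild-type cells.

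RTF1, which in yeast and human cells stimulates ubiquitination of histone H2B, held the sgRNA with the largest fall of the 90 in wild-type cells and the second largest in mutant cells. The sgRNA at 41709401 had 2 and 8 reads at day 9 and 188 and 315 reads at day 0 in mutant cells, and 4 and 4 reads at day 9 and 310 and 150 reads at day 0 in wild-type cells. Its log2 changes were -5.06 (SE 0.75) and -5.28 (SE 0.76). The sgRNA 25 bases away fell by 4.94 in mutant and by 3.80 in wild-type cells, and the other 3 did not pass in either line, with changes from -0.58 to 0.33. The sum of the 5 was 21.6 and 22.3 CPM at day 9 and 34.6 and 36.5 CPM at day 0 in mutant cells, and 18 and 22.3 CPM at day 9 and 37.4 and 33.4 CPM at day 0 in wild-type cells. Its log2 change was -0.70 (SE 0.15) in mutant and -0.82 (SE 0.15) in wild-type cells, and the mean of the 5 log2 levels, tested with limma, gave -2.02 and -1.91.

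CDC73, the subunit also known as parafibromin, had the smallest log2 change of the complex. Its sum had a log2 change of -0.29 (SE 0.10, adjusted p = 0.0729) in mutant cells, which did not pass, and fell by 0.52 (SE 0.10, adjusted p = 2.64e-04) in wild-type cells. Summed levels were 56.6 and 50.3 CPM at day 9 and 63.5 and 66.5 CPM at day 0 in mutant cells, and 46.5 and 47.8 CPM at day 9 and 66.0 and 69.0 CPM at day 0 in wild-type cells, without overlap in either line. Among its sgRNAs the one at 193091272 fell most, by 1.25 in mutant and by 1.81 in wild-type cells. The mutant change was called with DESeq2 (adjusted p = 0.00889), with limma (0.0449), when scaled to control sgRNAs (0.0326) and without the most abundant sgRNA, where it was -0.54 (0.0022). Its adjusted p was 0.0385 without mutant day 9 replicate 1 and 0.0404 and 0.0403 without either wild-type day 9 replicate.

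Both FACT genes fell in both lines. SSRP1, the subunit with a DNA-binding HMG domain, summed to 14.3 and 12.2 CPM at day 9 and to 39.8 and 34.6 CPM at day 0 in mutant cells (log2 change -1.50, SE 0.18). In wild-type cells it summed to 7.43 and 11.1 CPM at day 9 and to 39 and 38.1 CPM at day 0 (log2 change -2.06, SE 0.18). SUPT16H, the larger subunit, summed to 27.1 and 30.1 CPM at day 9 and to 41.5 and 46.2 CPM at day 0 in mutant cells (log2 change -0.62, SE 0.13). In wild-type cells it summed to 27.4 and 21.4 CPM at day 9 and to 52.0 and 46.5 CPM at day 0 (log2 change -1.02, SE 0.14). Of the 10 FACT sgRNAs, 3 passed as lower in mutant and 7 in wild-type cells, against 5% and 5.12% of all sgRNAs. At the sgRNA level the difference between lines passed for 0 of the 10 in edgeR, and 0 of them had an unadjusted p under 0.05.

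The kinase and cyclin of P-TEFb differed. CCNT1, cyclin T1, summed to 25.1 and 28.6 CPM at day 9 and to 42.3 and 36.1 CPM at day 0 in mutant cells (log2 change -0.54, SE 0.14), and to 26.1 and 25.6 CPM at day 9 and 44.4 and 35.1 CPM at day 0 in wild-type cells (log2 change -0.62, SE 0.14). Both sums fell, but 0 of its 5 sgRNAs passed singly in edgeR (2 in mutant and 1 in wild-type cells at an unadjusted p under 0.05), and the calls were lost in some fits with a library left out. The mutant change was -0.45 (adjusted p = 0.095) without mutant day 9 replicate 1 and -0.42 (0.26) without mutant day 0 replicate 1, and the wild-type change was -0.44 (0.174) without wild-type day 0 replicate 1. CDK9 summed to 70.0 and 82.7 CPM at day 9 and to 71.5 and 74.2 CPM at day 0 in mutant cells, and to 74.2 and 82.5 CPM at day 9 and 74.5 and 78.6 CPM at day 0 in wild-type cells. The days overlapped in both lines. Its log2 change was 0.07 (95% interval -0.12 to 0.26) in mutant and 0.03 (interval -0.16 to 0.22) in wild-type cells, and its 5 sgRNAs ran only from -0.27 to 0.25. They span 991 bases, the widest span of the 18 genes, where those of the other 17 span 94 to 515 bases.

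The 3 elongin genes differed: TCEB2 fell in both lines, TCEB3 rose in mutant cells, and TCEB1 passed in neither. TCEB2, elongin B, summed to 18.1 and 22.1 CPM at day 9 and to 30.0 and 31.1 CPM at day 0 in mutant cells, and to 12.3 and 14.3 CPM at day 9 and 24.3 and 25.4 CPM at day 0 in wild-type cells. It fell by 0.60 (SE 0.17) in mutant and by 0.90 (SE 0.18) in wild-type cells. Without its most abundant sgRNA, at 2827251, it had -0.36 (adjusted p = 0.321) and -0.35 (adjusted p = 0.342), so both calls were lost. With all 5 weighted equally, limma still called the wild-type fall (-0.79, adjusted p = 0.0209) but not the mutant one (-0.53, 0.176). Tested singly with edgeR, 3 of the 5 had an unadjusted p under 0.05 in mutant and 2 in wild-type cells. The mutant call was also lost without mutant day 9 replicate 1 (-0.47, adjusted p = 0.151), without mutant day 0 replicate 1 (-0.63, 0.124) and without mutant day 0 replicate 2 (-0.57, 0.20). TCEB1, elongin C, summed to 59.2 and 64.1 CPM at day 9 and to 61.9 and 62.7 CPM at day 0 in mutant cells, and to 54.9 and 53.2 CPM at day 9 and 64.3 and 52.9 CPM at day 0 in wild-type cells, with overlap in both lines. Its log2 change was -0.01 (95% interval -0.22 to 0.20) in mutant and -0.12 (interval -0.33 to 0.10) in wild-type cells, with 0 of 5 sgRNAs called by edgeR (0 and 1 at an unadjusted p under 0.05).

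TCEB3, elongin A, the large subunit that stimulates the polymerase, rose in mutant cells. Its sgRNAs summed to 78.1 and 81.5 CPM at day 9 and to 63.0 and 64.3 CPM at day 0 there, and to 56.3 and 50.3 CPM at day 9 and 63.6 and 60.9 CPM at day 0 in wild-type cells. The mutant libraries at day 9 lay above all the others, and the wild-type libraries at day 9 below all the others. The log2 change was 0.33 (SE 0.09, adjusted p = 0.0181) in mutant and -0.22 (SE 0.10, adjusted p = 0.161) in wild-type cells. The mutant call was lost without mutant day 9 replicate 2 (0.30, adjusted p = 0.113), without mutant day 0 replicate 1 (0.31, 0.21) and without mutant day 0 replicate 2 (0.34, 0.135), with values close to that of the full fit. At the sgRNA level 1 of 5, at 24070008, was called higher in mutant cells (0.61, adjusted p = 0.0445).

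TCEA1, which lets a backtracked polymerase cut its transcript, had 0.10 (95% interval -0.15 to 0.34) in mutant and -0.06 (interval -0.31 to 0.19) in wild-type cells. ELL, which raises the speed of the polymerase, had -0.09 (interval -0.29 to 0.11) in mutant and -0.04 (interval -0.24 to 0.16) in wild-type cells. TCEA1 sums lay between 51.7 and 58.9 CPM at day 9 and between 49.9 and 53.3 CPM at day 0 in mutant cells, and between 48.7 and 57.1 CPM at day 9 and between 46.6 and 63.6 CPM at day 0 in wild-type cells. The 2 days overlapped in both lines for TCEA1. ELL summed to 62.2 and 59.7 CPM at day 9 and to 64.8 and 64.9 CPM at day 0 in mutant cells, and to 55.0 and 60.0 CPM at day 9 and 60.7 and 57.8 CPM at day 0 in wild-type cells. Its mutant libraries were slightly lower at day 9, and its wild-type libraries overlapped. Of the 5 sgRNAs of each gene, 0 were called by edgeR. At an unadjusted p under 0.05 there were 1 of TCEA1 in mutant and 1 in wild-type cells, and 0 and 1 of ELL.

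Tested singly with edgeR, 27 of the 90 sgRNAs were lower in mutant cells (30%), against 5% of all 104881 sgRNAs, and 31 were lower in wild-type cells (34.4%), against 5.12% of all. Both lines shared 25 of these calls, 2 were made in mutant and 6 in wild-type cells alone, and none went opposite ways. How many of all sgRNAs were called in both lines, or in opposite ways, was not counted. One member sgRNA was higher in mutant cells, against 0.165% of all, and 0 in wild-type cells (0 also at an unadjusted p under 0.05), against 0.267% of all. The lowest of the 1894 non-targeting control sgRNAs had a log2 change of -3.51 in mutant and -3.42 in wild-type cells. Below that value lay 10 member sgRNAs in mutant and 12 in wild-type cells, 7 of them in both, all of SUPT5H, SUPT6H, PAF1, CTR9, LEO1, RTF1 or SSRP1. Of all P1 and P1P2 sgRNAs, 1.37% and 1.23% lay below it. Across the 90 sgRNAs the changes in mutant and wild-type cells correlated with Pearson's r = 0.918 and Spearman's rho = 0.837, a description only, since sgRNAs of 1 gene share their target. The 2 lines have no library in common, but their calls come from 1 fit that shares its estimate of the spread.

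Among genes that fell, the sgRNA lying farthest from the others of its gene was seldom among those that passed. Positions are those in the sgRNA names, of unstated build, which differ from GRCh38.p14, so only distances within a gene were used. For each gene the sgRNA farthest from the median position of its 5 was set against the other 4, a comparison chosen after the values were seen and given without a test. Among the 11 genes lower in mutant cells, 1 of 11 farthest sgRNAs was called lower (9.09%) and 25 of the 44 others were (56.8%). Among the 12 genes lower in wild-type cells it was 2 of 12 (16.7%) against 29 of 48 (60.4%). Over all genes called lower the same shares were 30.5% against 50.9% in mutant and 30.9% against 50.1% in wild-type cells. The median change of the farthest sgRNAs of the 11 and the 12 genes was 0.11 and -0.05, and that of the others -1.79 and -2.06. With every sgRNA of a gene weighted equally (limma on the mean log2 CPM), the fitted falls of PAF1, LEO1, CTR9 and RTF1 were larger: they were -3.36 in mutant and -3.20 in wild-type cells for PAF1, -2.20 and -2.40 for LEO1, -2.33 and -1.68 for CTR9, and -2.02 and -1.91 for RTF1. They lay nearer 0 than those of the sums for IWS1 (-1.06 in mutant and -0.42 in wild-type cells), for TCEB2 (-0.53 and -0.79) and for CCNT1 in mutant cells (-0.48).

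The distant sgRNAs lay on either side of the rest. Along the direction of transcription given by RefSeq, the farthest sgRNA lay downstream of the median position by 330 bases for PAF1, 403 for LEO1, 381 for IWS1, 315 for SUPT6H and 139 for CTR9. It lay upstream by 411 bases for SUPT16H and 330 for TCEB2. These 7 had changes from -0.43 to 0.45 over both lines, and none was called. SSRP1 was an exception: its 2 sgRNAs lying 320 and 394 bases downstream had -1.82 and -0.77 in mutant and -2.53 and -1.34 in wild-type cells, and 3 of these 4 changes passed. The farthest sgRNA of SUPT5H, 129 bases downstream, fell in both lines. Those of CCNT1, CDC73 and RTF1, at 335, 343 and 161 bases, did not pass, with -0.67, 0.03 and -0.58 in mutant and -1.24, 0.04 and -0.05 in wild-type cells.

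The series asked which knockdowns act differently in cells with mutant uL16. In edgeR's test of the difference in growth change, mutant minus wild-type, 0 of the 18 genes passed in either direction, against 0.0171% of all genes lower and 0% higher. At an unadjusted p under 0.05 there were 5 of the 18 (27.8%), 1 lower and 4 higher, against 5.68% of all genes. DESeq2 called 1, TCEB3. TCEB3 differed by 0.55 (95% interval 0.28 to 0.83, adjusted p = 0.336), with all 5 sgRNAs in that direction, from 0.32 to 0.81. SSRP1 differed by 0.56 (interval 0.05 to 1.06), SUPT6H by 0.48 (interval 0.07 to 0.90) and SUPT16H by 0.40 (interval 0.01 to 0.79), each a smaller fall in mutant cells, and none passed after adjustment (adjusted p = 0.865, 0.865 and 0.874). IWS1 differed by -0.54 (interval -0.93 to -0.14, adjusted p = 0.865), with all 5 sgRNAs in that direction, from -1.35 to -0.06. The sgRNAs of a gene share the same libraries and are not replicates of the lines. The share of all genes whose sgRNAs agree in direction was not counted.

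The remaining 13 genes had differences between -0.41 (CTR9) and 0.30 (TCEB2), with intervals that include 0. For SUPT5H the difference was -0.01, but its interval ran from -0.66 to 0.64, so differences of up to that size either way lie within it. Of single sgRNAs, 0 passed in edgeR, and 6 of the 90 had an unadjusted p under 0.05, where 5.11% of all sgRNAs did. The largest was the PAF1 sgRNA at 39881702, with a difference of -2.01 (-5.15 in mutant and -3.14 in wild-type cells) that the other sgRNAs of PAF1, from -0.05 to 0.92, did not share. At day 0, mutant against wild-type cells, edgeR called 0 of the 18 genes and 0% of all genes. At an unadjusted p under 0.05 there were 0 of the 18, and 110 lower and 132 higher of all genes. There the log2 differences of the 18 genes ran from -0.26 for IWS1 to 0.36 for CTR9.

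Other genes of elongation and partner genes, such as the SAGA subunit SUPT20H, were taken from a list, and 9 fell in both lines. The share of all genes that fell in both lines was not counted. From that list of 64 symbols, older and newer names included, 56 had a tested gene. In mutant cells edgeR called 13 of the 56 lower (23.2%), against 9.07% of all genes. It called 0 higher there (3 at an unadjusted p under 0.05), against 0.798% of all genes, and the median log2 change was -0.01. In wild-type cells it called 13 lower (23.2%), against 9.28% of all genes. There 2 were called higher, against 0.986% of all genes, and the median was -0.03. RNF20 and RNF40, the 2 subunits of the ubiquitin ligase for histone H2B that works with the PAF1 complex, fell by 1.04 (SE 0.11) and 1.23 (SE 0.12) in mutant and by 0.60 (SE 0.11) and 0.93 (SE 0.12) in wild-type cells. CDK12, a kinase of the polymerase tail, fell by 0.98 (SE 0.11) and 0.83 (SE 0.11), and ELOF1, a conserved factor on the polymerase, by 0.79 (SE 0.09) and 0.98 (SE 0.10), in mutant and wild-type cells in that order. RPRD1B, which binds the polymerase tail, fell by 0.92 (SE 0.11) in mutant and by 0.58 (SE 0.11) in wild-type cells. SUPT20H, a SAGA subunit, fell by 1.45 (SE 0.18) in mutant and by 1.42 (SE 0.18) in wild-type cells, and BRD2, a bromodomain protein, by 0.65 (SE 0.12) in mutant and by 0.85 (SE 0.13) in wild-type cells. The 2 that rose in wild-type cells, named after their values were seen, were AFF4, the scaffold of the super elongation complex, at 0.29 (SE 0.09), and HTATSF1 at 0.29 (SE 0.09). In mutant cells AFF4 had 0.26 (SE 0.09, edgeR adjusted p = 0.051) and HTATSF1 had 0.11 (SE 0.09, 0.608).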

How the data were processed

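The data are counts of sgRNAs amplified from genomic DNA of 8 libraries, 2 in each of 4 groups taken with their replicate numbers from the labels. The authors deposited raw read counts per sgRNA, 1 column per library, with no normalization. Per the file headers, bases 1 to 39 of each read were kept and matched forward against a human CRISPRi version 2 library. The submitters' processing notes name hg38, and no counting program is named in the sources used here.

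sgRNAs with a mean count of at least 20 were kept, and P1 and P1P2 sgRNAs were summed per gene where at least 3 were kept (17547 genes). The 8080 kept sgRNAs of transcript-named sets entered the sgRNA tests only. Counts were fitted in R 4.3.3 with edgeR 4.0.16 (TMM, glmQLFit, glmQLFTest, 1 mean per group over all 8 libraries, 4 residual degrees of freedom). P-values were adjusted by the Benjamini-Hochberg method over all genes or all sgRNAs, with a threshold of 0.05. CPM use TMM-scaled library sizes. No molecular identifiers marked PCR copies, so depth speaks to counting error only. On simulated falls of 1 on the log2 scale in mutant cells, the test called 98% of 50 genes and 30% of 50 single sgRNAs. For falls of 0.5 it called 80% and 4%. Genes and sgRNAs were drawn at random in 1 run, with the spread set to the trend over all of them. In that run 17347 genes and 104681 sgRNAs were left unchanged. In the data 1591 genes and 5248 sgRNAs were called lower in mutant cells. With fewer falls, the adjustment demanded a smaller unadjusted p in the simulation than in the data. The mix of falling and unchanged sgRNAs within a gene was not simulated. For both reasons these shares may not hold for the members.

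The members and lists were chosen with earlier results of these data known. All 18 genes are named, and of other elongation genes at most 6 per line, those with the smallest p, of which 1 is not reported here, plus 2 that rose, chosen after their values were seen. Symbols of all 18 matched RefSeq, 3 of them as synonyms. Alternatives were RLE scaling, scaling to control sgRNAs, DESeq2 1.42.0, limma 3.58.1 on mean log2 CPM (prior count 2), other filters and sgRNA choices, a replicate block and each library left out.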

Additional observations from a re-analysis of the deposited data

Results flagged for a closer look

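The values of TCEB3 lay on opposite sides in the 2 lines, a rise in mutant cells that passed in edgeR (adjusted p = 0.0181) and a wild-type value of -0.22 that did not (0.161). Every mutant library at day 9 lay above every mutant library at day 0, and every wild-type library at day 9 lay below every wild-type library at day 0. TCEB3 was flagged for this separation, so the separation adds no evidence for a difference. The share of all genes that separate in this way was not counted. The difference of the log2 changes, mutant minus wild-type, was 0.55. It was tested: edgeR gave an unadjusted p of 2.56e-04 and an adjusted p of 0.336 over all genes, and DESeq2 an adjusted p of 0.00177. Without wild-type day 9 replicate 1 edgeR's adjusted p was 0.0496 and the difference 0.64. The difference did not pass with limma (0.53, adjusted p = 0.863), without the most abundant sgRNA (0.58, 0.599) or without the farthest sgRNA (0.59, 0.273).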

How the results depend on the processing

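Most gene values kept direction and side of the threshold: of 1062 comparisons of a gene's value with an alternative, 987 did, 21 lost and 10 gained a call, and 44 changed sign, none of those with an adjusted p under 0.05. Requiring a log2 change beyond 1 left 6 member genes lower in mutant and 6 in wild-type cells, and 0 higher in mutant cells. The single gene higher in mutant cells became 0 with limma and without the most abundant sgRNA, and the single sgRNA higher there became 0 when scaled to control sgRNAs. Over left-out libraries these counts were 0 to 1 each. DESeq2 called 1 member gene higher in the difference, and leaving out libraries gave 0 to 1. Member genes lower were 9 to 12 in mutant and 10 to 12 in wild-type cells over left-out libraries, and member sgRNAs lower 24 to 30 and 21 to 32. Over all genes, DESeq2 called 441 higher in mutant and 696 in wild-type cells against 140 and 173 in edgeR, scaling to controls 69 and 83, and in the difference DESeq2 called 29 lower and 18 higher against 3 and 0. limma called 83 higher in mutant cells. Leaving out 1 library gave 35 to 243 higher genes in mutant and 48 to 336 in wild-type cells, and 1 to 15 lower in the difference, where leaving out the farthest sgRNA gave 7. Over all sgRNAs, scaling to controls called 114 higher in mutant and 180 in wild-type cells against 173 and 280, and leaving out 1 library gave 38 to 391 and 52 to 683. With limma the calls of IWS1 in wild-type cells (adjusted p = 0.141) and of CCNT1, TCEB3 and TCEB2 in mutant cells (0.0676, 0.0504 and 0.176) were lost. Without the most abundant sgRNA they were lost too (0.209, 0.0854, 0.208 and 0.321). With transcript-named sets included, or without the farthest sgRNA (both chosen after seeing the data), the counts of member genes were the same.

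The sign changes were all near 0 or in the difference. Without the most abundant sgRNA they were SUPT5H 0.26, PAF1 -0.19, CDK9 -0.05 and TCEB2 -0.018 in the difference, CDK9 -0.023 and TCEB1 0.14 in mutant, and TCEB1 0.028 and ELL 0.15 in wild-type cells. With limma they were PAF1 -0.15 and RTF1 -0.11 in the difference, TCEB1 0.051 in mutant, and CDK9 -0.014 and ELL 0.045 in wild-type cells. Scaled to control sgRNAs CDK9 had -0.005 in wild-type cells. Without the farthest sgRNA they were SUPT5H 0.26, PAF1 -0.18 and CCNT1 -0.037 in the difference and CDK9 -0.006 in wild-type cells. Over left-out libraries the difference ranged from -0.18 to 0.19 for SUPT5H, -0.18 to 0.43 for PAF1, -0.069 to 0.44 for LEO1, -0.025 to 0.28 for RTF1, -0.09 to 0.15 for CDK9, -0.10 to 0.24 for CCNT1, -0.046 to 0.24 for TCEB1, -0.086 to 0.36 for TCEA1 and -0.11 to 0.02 for ELL. The change ranged from -0.049 to 0.044 for SUPT4H1, -0.057 to 0.18 for CDK9 and -0.071 to 0.04 for TCEB1 in mutant cells, and from -0.047 to 0.11 for CDK9, -0.25 to 0.032 for TCEB1, -0.27 to 0.18 for TCEA1 and -0.11 to 0.019 for ELL in wild-type cells. The causes were not tested.

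Replicates with the same number did not deviate together (correlations of deviations over genes of 0.045 in mutant and 0.018 in wild-type cells), so they were not paired. With a replicate block, member genes lower were 11 in mutant and 12 in wild-type cells, so pairing by number changed no count by over 1.5 times among members; over all genes the difference had 9 lower and 1 higher, and over all sgRNAs 3 lower and 1 higher, against 0 and 0 without the block. Low day 9 counts limit the strongest sgRNAs: at 2 to 8 reads, an sgRNA's log2 change has an SE near 0.75.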

Other observations

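The member sgRNAs started at different levels. The median level of a member sgRNA at day 0, averaged over the 4 libraries of both lines, was 6.82 CPM, where that of all P1 and P1P2 sgRNAs was 8.44 CPM. By gene the lowest medians were 3.23 CPM for CTR9, 3.38 CPM for SSRP1, 4 CPM for TCEB2 and 4.42 CPM for SUPT5H. The highest were 10.4 CPM for CDK9, 10.8 CPM for SUPT4H1, 10.9 CPM for ELL and 11.2 CPM for CDC73. Day 0 followed puromycin selection. Library representation before transduction was not analysed here, so loss before day 0 and starting abundance cannot be told apart.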
